A study of Mus musculus with 80 samples.

Results

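The 9 genes described here encode the subunits of the AMPA and NMDA receptors, the ligand-gated channels through which glutamate excites neurons. They were chosen by name (Gria1, Gria2, Gria3, Gria4, Grin1, Grin2a, Grin2b, Grin2d and Grin3a), and all 9 were listed among the 25160 genes of the table. The study sorted single cells from the dorsomedial striatum of mice that carried 2 BAC transgenes, Drd1a-TdTomato and Drd2-EGFP, each heterozygous, so that every animal had red D1 and green D2 medium spiny neurons (MSN), the projection neurons of the striatum. A reporter shows the activity of a promoter fragment, not the receptor itself, and the Drd2 reporter also lights up cholinergic interneurons. The animals were adult females of 8 to 12 weeks. Before the brain was taken, they were injected in the dorsomedial striatum under anesthesia with India ink and the nuclear dye Hoechst. The dye marked the cells to be sorted, and no other treatment was named. Of the cells, 40 carried the Drd1 label and 40 the Drd2 label. The values were TPM (transcripts scaled by their length and by the total of the cell), as deposited.

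AMPA receptors are tetramers that open and close quickly and carry most of the fast excitatory current. The subunits Gria1 to Gria4 can be mixed, and the one encoded by Gria2 makes the channel nearly impermeable to calcium once its RNA is edited at a single codon, the Q/R site. NMDA receptors need the obligatory subunit Grin1, which binds glycine or D-serine, together with a Grin2 subunit, which binds glutamate. They pass calcium, are blocked by magnesium at rest, and act as detectors of coincident activity in the plasticity of cortical and thalamic synapses onto MSN. Grin2b is known to favour slow currents, Grin2a faster ones, Grin2d is largely an interneuron and juvenile subunit, and Grin3a lowers calcium permeability.

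For 7 of the genes, the stretch that codes for the pore is shown because the subunits differ there in a way that the levels below cannot report. It is read 5′ to 3′ on the coding strand from GENCODE M21 (GRCm38), within a coding exon, with 12 bases on each side of the codon in capitals. In the Gria genes the capitals mark the glutamine codon of the Q/R site as the genome has it.
Gria1 (chr11:57243082-57243108, plus strand): ggggccttcatgCAGcaaggatgtgac
Gria2 (chr3:80706899-80706925, minus strand): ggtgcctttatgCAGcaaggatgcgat
Gria3 (chrX:41610253-41610279, plus strand): ggtgcttttatgCAGcaaggatgtgat
Gria4 (chr9:4464125-4464151, minus strand): ggtgcctttatgCAAcaaggatgtgac
In the Grin genes the capitals mark the asparagine codon at the matching place of the pore, known for its role in the magnesium block.
Grin1 (chr2:25297374-25297400, minus strand): ggcgtcctgctcAACtctggcattggg
Grin2a (chr16:9653549-9653575, minus strand): ggcctggtcttcAACaattctgtgccc
Grin2d (chr7:45854381-45854407, minus strand): gccctggtgttcAACaactccgtgcca
The 4 Gria stretches shared 23 to 25 of 27 bases with each other. Grin2a and Grin2d shared 22 of 27 bases, whereas Grin1 shared 12 with each of them. Gria2 carries the same glutamine codon in the genome as Gria1 and Gria3, so the calcium permeability of its product is set in the RNA. TPM sum all reads of a gene and say nothing of this editing or of splice forms.

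The genes lie on 9 chromosomes (GRCm38). Gria1 spans chr11:57011387-57330244, Gria2 chr3:80681450-80802835, Gria3 chrX:41400854-41678601 and Gria4 chr9:4417896-4796234. Grin1 spans chr2:25291181-25319187, Grin2a chr16:9567898-9995560, Grin2b chr6:135713233-136173511, Grin2d chr7:45831883-45878378 and Grin3a chr4:49661611-49845744. The TPM are per whole gene.

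The labels name no animal, so cells of a group were not treated as replicates, each group was 1 sample and no test was made. Medians, means and quartiles over cells describe these cells only, and a share of cells comes with its 95% interval by the exact Clopper-Pearson method, for counting error alone. Drd1 was above 1 TPM in 38 of 40 Drd1-labelled cells and in 3 of 38 Drd2-labelled MSN, and Drd2 in 2 and 26 of them. Penk, a D2 MSN gene, reached 3676 TPM in a D1 MSN, and Tac1, a D1 MSN gene, 1218 TPM in a D2 MSN, and both cells were kept by their label. Of the Drd2-labelled cells, 2 held Chat, Slc18a3 and Slc5a7, the enzyme and transporters of acetylcholine neurons, each above 100 TPM. They were set apart as cholinergic interneurons, which left 40 D1 MSN and 38 D2 MSN. Plate FACS051_5 held 18 D1 and 16 D2 MSN, plate FACS086_4 held 21 and 19, and plate FACS086_9 held 1 and 3. The number of genes above 1 TPM per cell ran from 648 to 8657 in D1 MSN (median 5722) and from 1215 to 7942 in D2 MSN (median 4927.5). TPM keep no read count, so the depth of a cell is unknown. Because the housekeeping gene Eef1a1 was at 0 in 1 cell, a zero is given as listed at 0.

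Both kinds of MSN held the same core of subunits. Gria2, Grin2b and Grin1 were the highest of the 9 genes in mean TPM, followed by Gria1 and Gria3, then Grin2a and Gria4, whereas Grin2d was listed above 1 TPM in 5 of 78 MSN and Grin3a in 0. All of Gria2, Grin1 and Grin2b were above 1 TPM in 65 of 78 MSN, that is in 36 of 40 D1 and 29 of 38 D2 MSN. Taken as mean TPM plus 1, none of the 9 genes differed by more than 2-fold between D1 and D2 MSN. For Grin2d, with mean TPM of 0.881 and 0.120, this depends on the added 1 TPM.

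**Figure D1:**
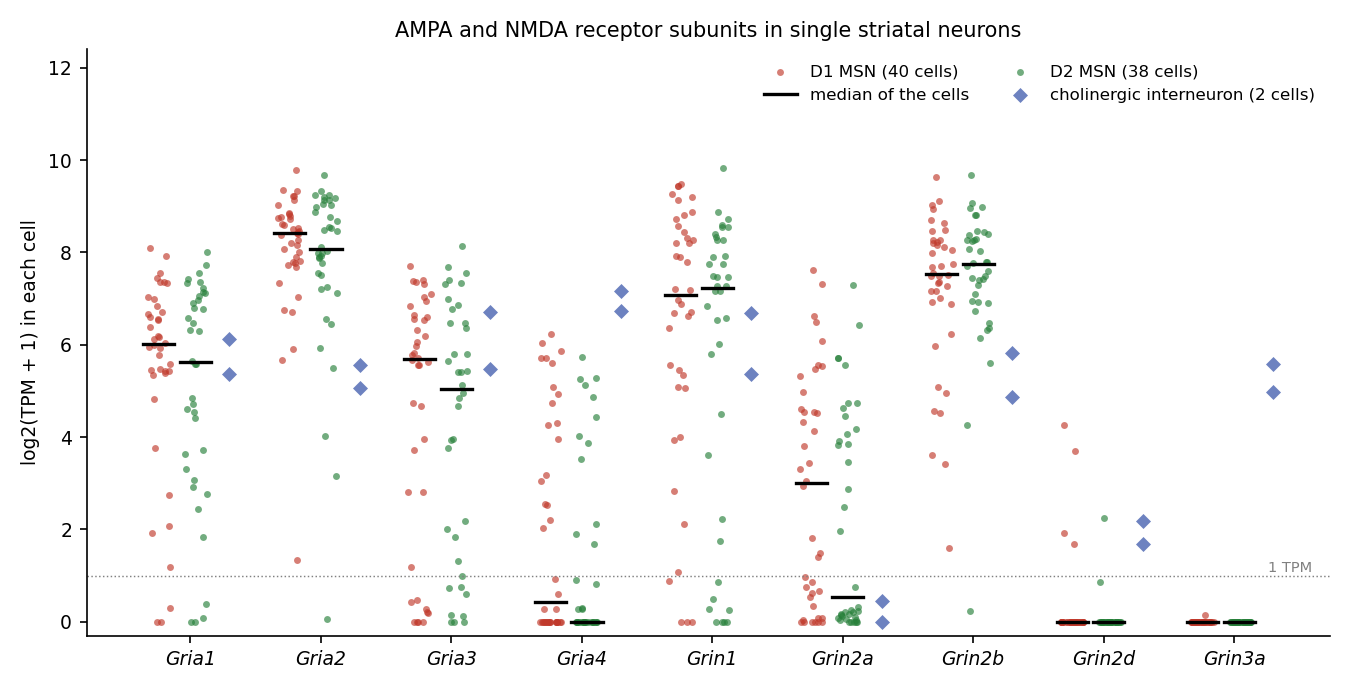
TPM of the 9 subunit genes in each cell, on a log2(TPM + 1) axis; each point is a cell, black bars are medians over 40 D1 MSN (red) and 38 D2 MSN (green), diamonds are the 2 cholinergic interneurons and the dotted line is 1 TPM. D1 and D2 MSN overlap for every gene, Gria2 and Grin2b are at or below 1 TPM in 1 MSN, and the diamonds stand above every MSN for Gria4 and Grin3a.

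Among the AMPA subunits, Gria2, which governs calcium entry, was the most abundant. In D1 MSN it ran from 1.51 to 878 TPM with a median of 340 TPM and a mean of 341 TPM. In D2 MSN it ran from 0.0420 to 823 TPM with a median of 267 TPM and a mean of 326 TPM. The ranges overlapped almost fully, and Gria2 ranked 233rd in D1 MSN and 262nd in D2 MSN by mean TPM among all 25160 genes. It passed 1 TPM in 100% of D1 MSN (40 of 40, interval from 91.2%) and in 97.4% of D2 MSN (37 of 38, interval 86.2% to 99.9%). The lowest D1 value belonged to the D1 MSN with the fewest genes (648) and the lowest D2 value to the D2 MSN with the fewest genes (1215), and in the latter Grin1 was still at 11.2 TPM. In the cell with 648 genes, Drd1 was listed at 0 and Ppp1r1b, an MSN gene, was 1.42 TPM, below every other MSN. It was kept as a D1 MSN by its label.

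Gria1, which pairs with Gria2 in most forebrain receptors and is known to be driven into synapses during plasticity, was the next AMPA subunit by mean. Its TPM ran from 0 to 273 in D1 MSN (median 63.7, mean 79.1) and from 0 to 257 in D2 MSN (median 48.1, mean 74.4). Cells of both kinds filled the same range, and 37 of 40 D1 and 34 of 38 D2 MSN were above 1 TPM. Gria3, which also pairs with Gria2, ran from 0 to 208 TPM in D1 MSN (median 50.6, mean 61.6) and from 0 to 280 TPM in D2 MSN (median 32.04, mean 58.5). Above 1 TPM it was found in 31 of 40 D1 and 29 of 38 D2 MSN, or 77.5% and 76.3%. Gria1 exceeded Gria3 in 44 of 78 MSN, so that the order of the pair varied from cell to cell.

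Gria4, a subunit better known from interneurons and thalamus, was found in fewer MSN. Its TPM ran from 0 to 73.9 in D1 MSN (median 0.362, mean 13.0) and from 0 to 52.0 in D2 MSN (median 0, mean 6.84). Gria4 passed 1 TPM in 45.0% of D1 MSN (18 of 40, interval 29.3% to 61.5%) and in 31.6% of D2 MSN (12 of 38, interval 17.5% to 48.7%). The intervals cover counting error alone and are no test between the groups. Where it was above 1 TPM, its median was 22.2 TPM in D1 and 17.98 TPM in D2 MSN, and 12 D1 and 9 D2 MSN were above 10 TPM. All 4 AMPA subunits were above 1 TPM in 27 of 78 MSN (16 D1 and 11 D2).

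The make-up of the AMPA subunit RNA was close to the same in both kinds of MSN. Of the summed mean TPM of Gria1 to Gria4, Gria2 made up 68.9% in D1 MSN and 70.0% in D2 MSN, Gria3 12.5% and 12.6%, and Gria4 2.63% and 1.47%. Gria1 made up 15.99% over all MSN. Within single cells the Gria2 share ran from 20.8% to 100% in D1 MSN (median 70.8%) and from 32.3% to 100% in D2 MSN (median 69.8%). Gria2 was the highest of the 4 in 71 of 78 MSN and over 50% of their sum in 67. In 5 MSN, 4 of them D1, Gria1 was the highest, and in 2 D2 MSN it was Gria3. One of those last 2 was the D2 MSN with 1215 genes, whose 4 AMPA subunits summed to 0.129 TPM. Between the 2 large plates the Gria2 share of D1 MSN was 60.3% on FACS051_5 and 75.4% on FACS086_4, and that of D2 MSN 68.5% and 70.2%. On the first plate D1 MSN thus had the lower share and on the second the higher one.

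**Figure D2:**
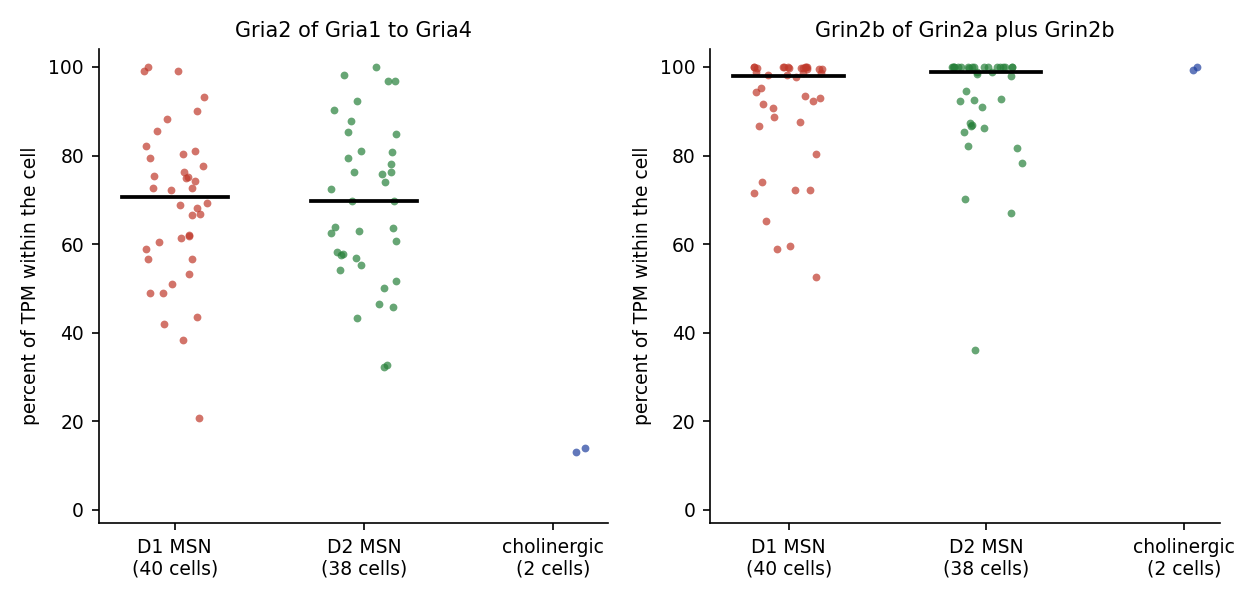
Share of Gria2 in the summed TPM of Gria1 to Gria4 (left) and of Grin2b in the summed TPM of Grin2a and Grin2b (right) within each cell, in percent; points are cells and bars are medians over the MSN. The medians are 70.8% and 69.8% for Gria2 and 98.0% and 98.9% for Grin2b in D1 and D2 MSN, while the Gria2 share of both cholinergic interneurons lies below that of every MSN.

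Grin1, the subunit without which no NMDA receptor forms, was abundant but uneven. It ran from 0 to 715 TPM in D1 MSN (median 134, mean 225) and from 0 to 904 TPM in D2 MSN (median 148, mean 176). The median was thus higher in D2 MSN and the mean higher in D1 MSN. Grin1 passed 1 TPM in 90.0% of D1 MSN (36 of 40, interval 76.3% to 97.2%) and in 78.9% of D2 MSN (30 of 38, interval 62.7% to 90.4%). All 12 MSN with Grin1 at or below 1 TPM (4 D1 and 8 D2) had Grin2b above 1 TPM, as had 77 of all 78 MSN. Those 12 cells had a median of 3578 genes above 1 TPM, and the 66 others 5768.5.

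Grin2b was the leading Grin2 subunit. It ran from 2.01 to 798 TPM in D1 MSN (median 184, mean 223) and from 0.185 to 821 TPM in D2 MSN (median 213, mean 244), and was above 1 TPM in 40 of 40 and 37 of 38 cells. Grin2a, the subunit that typically gains on Grin2b as cortical synapses mature, ran from 0 to 196 TPM in D1 MSN (median 6.98, mean 24.8) and from 0 to 155 TPM in D2 MSN (median 0.470, mean 15.4). It passed 1 TPM in 60.0% of D1 MSN (24 of 40, interval 43.3% to 75.1%) and in 47.4% of D2 MSN (18 of 38, interval 30.98% to 64.2%). Here too the intervals are no test between the groups. At a limit of 0 TPM the Grin2a shares were 85.0% of D1 and 86.8% of D2 MSN. At 10 TPM they were 42.5% and 39.5%, so the order of the 2 kinds depended on the limit.

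Grin2b exceeded Grin2a in 77 of 78 MSN. The exception was a D2 MSN of plate FACS086_4 with Grin2a at 155 TPM and a Grin2b share of 36.1%. Of the summed mean TPM of Grin2a and Grin2b, Grin2b made up 90.0% in D1 MSN and 94.1% in D2 MSN. On plate FACS051_5 these shares were 91.8% and 95.2%, and on FACS086_4 87.7% and 94.0%, so that on each large plate D2 MSN had the larger Grin2b share. Median shares within single cells lay closer together, at 98.0% and 98.9%. Grin2b without Grin2a above 1 TPM was found in 35 MSN (16 D1 and 19 D2), both in 42, and Grin2a without Grin2b in 0.

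The remaining NMDA subunits were rare in MSN. Grin2d passed 1 TPM in 10% of D1 MSN (4 of 40, interval 2.79% to 23.7%) and in 2.63% of D2 MSN (1 of 38, interval 0.0666% to 13.8%). Its highest values were 18.1 and 12.1 TPM, both in D1 MSN, and 3.72 TPM in a D2 MSN, and 72 of 78 MSN were listed at 0. A single D1 MSN carried 45.6% of the summed Grin2d TPM of all MSN. Grin3a was listed at 0 in 77 of 78 MSN and at 0.104 TPM in the other, a D1 MSN, so 0 of 78 cells were above 1 TPM, for which the exact interval reaches 4.62%. This limits the share of cells with a value above 1 TPM, not the share that express the gene.

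By mean TPM over the 78 MSN the order was Gria2, Grin2b, Grin1, Gria1, Gria3, Grin2a, Gria4, Grin2d and Grin3a. TPM are per length, so levels of different genes may be set side by side, but with limits. The study reports that its reads were biased to the 3′ end of transcripts. It also reports that gene annotations differ in the untranslated ends they include, as for Chrm4. The part of either in this order, in the subunit shares and in the ratio below was not tested. Neighbours in the order overlapped over cells. Gria2 exceeded Grin2b in 51 of 78 MSN, Grin2b exceeded Grin1 in 44, Grin1 exceeded Gria1 in 50, Gria3 exceeded Grin2a in 58 and Grin2a exceeded Gria4 in 51. Gria4 exceeded Grin2d in 38 of 78 MSN and Grin2d exceeded Grin3a in 6. On plate FACS086_4 D1 MSN had Grin1 (mean 199 TPM) above Grin2b (mean 170 TPM), the reverse of D2 MSN on that plate (151 and 256 TPM). Summed over the subunits, AMPA and NMDA receptor RNA were near parity, with a ratio of AMPA to NMDA mean TPM of 1.04 in D1 and 1.07 in D2 MSN. That ratio was 0.826 and 0.997 on plate FACS051_5 and 1.31 and 1.21 on FACS086_4.

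To compare the 2 kinds of MSN, the log2 of mean TPM plus 1 in D1 over that in D2 MSN was taken, and a gene was counted as different where this passed 1 in size with the same direction on both large plates. By that rule 0 of the 9 subunit genes were different, beside 14.1% of all 25160 genes. Of the 7 subunits averaging 1 TPM or more over MSN also 0 were different, beside 21.3% of the 15671 genes that did, and 15.9% of the 7642 genes that averaged 10 TPM or more. The median size of the log2 difference was 0.13 over the 7 subunits and 0.67 over the 15671 genes. Over the 7642 genes it was 0.48. Pooling makes a size smaller where the plates go opposite ways, as they did for 4 of 8 subunits (Grin3a left out). Gria1 was at 0.57 and -0.69 and Grin2b at 0.26 and -0.59 on FACS051_5 and FACS086_4. No median size within a plate was taken over all genes, so the subunits cannot be called more alike than other genes. With a single sample per group, these counts and sizes describe the cells at hand.

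The log2 difference of D1 over D2 MSN was 0.09 for Gria1, 0.06 for Gria2 and 0.07 for Gria3. For Gria1 the near-zero value joined opposite plates, with 0.57 on FACS051_5 (means of 110 TPM in D1 and 73.9 TPM in D2 MSN) and -0.69 on FACS086_4 (53.1 and 86.0 TPM). Grin2b was alike in this, with -0.13 over all plates, 0.26 on FACS051_5 and -0.59 on FACS086_4. No direction between D1 and D2 MSN can be read for these genes.

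Differences towards D1 MSN on both large plates were found for 4 genes, each below 2-fold on the scale of mean TPM plus 1. Gria4 differed by 0.84 on the log2 scale, with 0.35 on FACS051_5 and 1.07 on FACS086_4. Grin2a differed by 0.65, with 1.03 and 0.51 on these plates, and Grin1 by 0.35, with 0.24 and 0.39. The Grin2a value on FACS051_5 includes the D1 MSN with the most Grin2a of all MSN. That cell was at 196 TPM, against a mean of 25.2 TPM over the D1 MSN of this plate. The difference without that cell was not taken. Grin2d differed by 0.75, a value that rests on 6 cells above 0 and on the pseudocount, being 2.16 with 0.1 TPM and 0.10 with 10 TPM in its place. D1 MSN also had more genes above 1 TPM per cell (median 5722 against 4927.5). Among the cells with at least 4000 genes, 33 D1 and 26 D2 MSN, Grin2a was above 1 TPM in 63.6% and 53.8%, Gria4 in 48.5% and 42.3% and Grin1 in 93.9% and 84.6%. These gaps between shares were narrower than over all cells. The log2 difference in these cells was 0.55 for Gria4 and 0.59 for Grin2a, each smaller than over all cells, and 0.43 for Grin1 and 0.82 for Grin2d, each larger. No difference is given for Grin3a, which was listed at 0 in every D2 MSN.

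**Figure D3:**
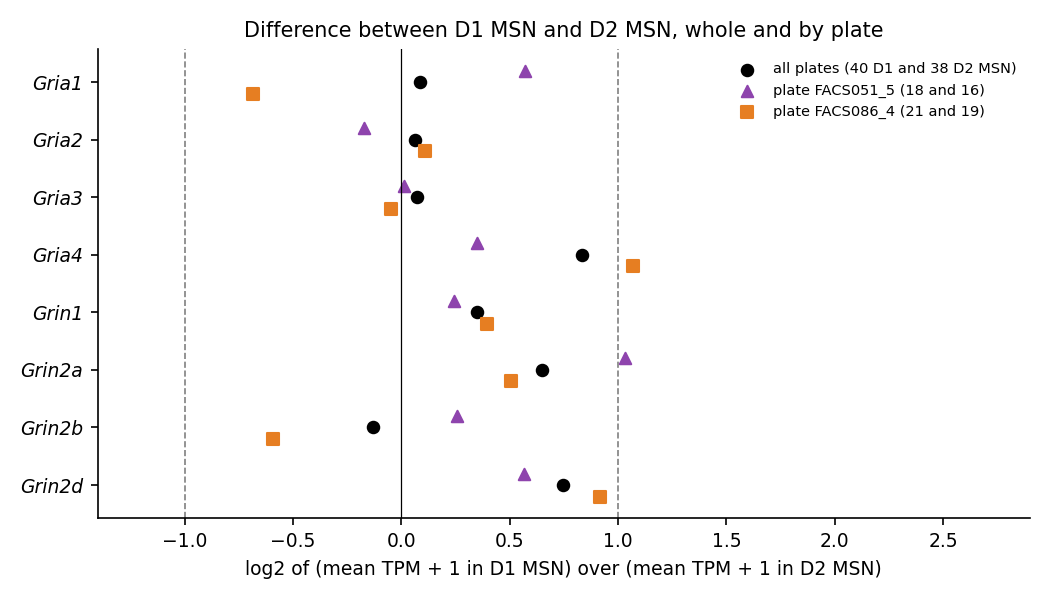
Difference between D1 and D2 MSN in mean TPM for 8 subunit genes (Grin3a is left out), as log2 of mean TPM plus 1, over all plates (circles) and within the plates FACS051_5 (triangles) and FACS086_4 (squares); dashed lines mark 2-fold. No circle passes the dashed lines, and Gria1 and Grin2b have their triangle and square on opposite sides of 0.

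How many subunits were found in a cell tended to follow how many genes were found in it. The number of the 9 subunit genes above 1 TPM ran from 2 to 7 in D1 MSN (median 6) and from 1 to 7 in D2 MSN (median 5). In 19 of 78 MSN it was 7, in 27 it was 6 and in 6 cells it was 3 or fewer. Over the 78 MSN its Spearman correlation with the genes above 1 TPM per cell was 0.69, a description in which both counts come from the same library and share its depth. For the TPM of single subunits the same correlation was 0.55 for Gria3, 0.52 for Gria2, 0.50 for Gria4, 0.49 for Grin1, 0.36 for Grin2a, 0.34 for Gria1 and 0.18 for Grin2b. Grin2b stood out in that its value was 0.56 within D1 MSN and -0.13 within D2 MSN. The cells in which Grin2a was above 1 TPM had a median of 6072.5 genes, and the others 4555.5, and for Gria4 the medians were 6216.5 and 4679.5.

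**Figure D4:**
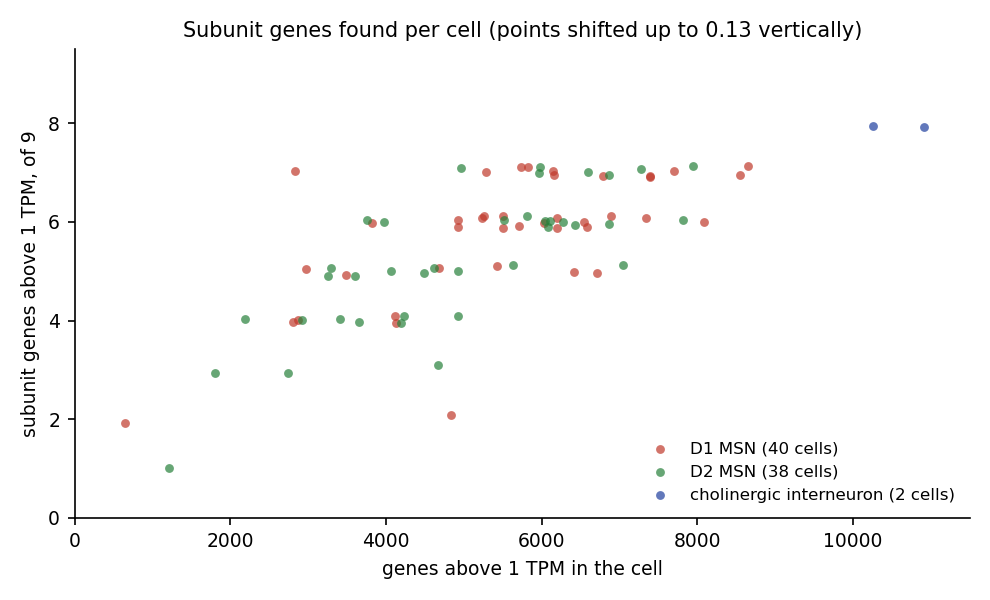
Number of the 9 subunit genes above 1 TPM in each cell against the number of all genes above 1 TPM in it; points are cells, D1 MSN red, D2 MSN green and cholinergic interneurons blue. MSN with fewer genes tended to have fewer subunits, with exceptions, and both cholinergic interneurons, with 10251 and 10912 genes, had 8 of 9.

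Across the MSN the subunits were only loosely tied to each other. The highest Spearman correlations of TPM between subunits over the 78 cells were 0.46 for Gria3 with Grin1 and 0.43 for Gria2 with Gria3, and the value for Grin2a with Grin2b was -0.02. Points share the depth of each cell, and weak values in such sparse data are no finding. Of 3447 genes that passed 1 TPM in 50% of MSN or more, those with the pattern most like each subunit were listed by the same measure. Gria3 was most like Chn1 (0.64), Scn4b (0.62) and Ndrg4 (0.62), and Grin1 most like Scn4b (0.58), Pcp4 (0.58) and Prkcb (0.57). Gria2 was most like Tmod2 (0.58), Kcnq1ot1 (0.55) and Fut9 (0.54), and Gria1 most like Arl6ip5 (0.52), Atp2b2 (0.50) and Pnmal2 (0.50). Scn4b, a sodium channel beta subunit, was the one gene on 2 of these lists. Values were lower for Grin2a with Usp5 (0.48), Rock2 (0.47) and Spock3 (0.46) and for Grin2b with Mink1 (0.48), Camk2n1 (0.46) and Nucks1 (0.43). Each was picked as among the highest of 3447 in the same cells, which raises the values. Some were unlike in the 2 kinds of MSN. Tmod2 with Gria2 was 0.36 in D1 and 0.69 in D2 MSN, Prkcb with Grin1 0.73 and 0.34, and Mink1 with Grin2b 0.62 and 0.28. Others were close, as Chn1 with Gria3 (0.66 and 0.63). The listed genes also followed the genes per cell, with correlations of 0.26 to 0.73.

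The 2 cholinergic interneurons, in wells A08 and B02 of plate FACS051_5, had another set of subunits. These cells are the large tonically active neurons that release acetylcholine within the striatum. Chat was 347 and 307 TPM in them and at most 14.7 TPM in any MSN, and Ppp1r1b, which encodes the MSN protein DARPP-32, was 33.0 and 3.63 TPM against a median of 1638 TPM over MSN. With 2 cells, the values are given with no test.

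Gria4 was 142 and 105 TPM in the cholinergic interneurons, above the highest MSN (73.9 TPM). Grin3a was 30.7 and 47.1 TPM in them, against at most 0.104 TPM in any MSN. These 2 of the 9 genes had both cholinergic cells above every MSN, as had 1.09% of all 25160 genes. Gria2 was 46.6 and 32.6 TPM, below the lower quartile of the MSN (205 TPM), and Grin2b was 55.2 and 28.4 TPM, below their lower quartile of 121 TPM. Among the 2270 genes whose MSN lower quartile was above 0, 5.99% had both cholinergic cells below it, as had these 2 of the 6 subunits that could. Gria2 was at or below the higher cholinergic value in 5 of 78 MSN and Grin2b in 10, so single MSN did reach such levels.

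The AMPA make-up of the cholinergic interneurons was turned over. Gria4 made up 42.9% and 42.2% of the summed AMPA subunit TPM and Gria2 14.05% and 13.1%, below the Gria2 share of each of the 78 MSN, of which the lowest was 20.8%. Grin3a made up 23.8% and 26.1% of the summed TPM of the 5 NMDA genes. Grin2a was 0.368 TPM in one cell and listed at 0 in the other, and Grin2d was 2.20 and 3.55 TPM. Gria1 (40.0 and 68.4 TPM), Gria3 (103 and 43.5 TPM) and Grin1 (40.1 and 102 TPM) lay within the range of the MSN. Both cells had more genes above 1 TPM (10912 and 10251) than any MSN, and the part of this in the values was not tested.

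One cell with the Drd1 label, well D04 of plate FACS051_5, carried astrocyte genes. Aldoc was 10427 TPM, Slc1a3 1334 TPM, Gja1 989 TPM and Aqp4 122 TPM in it, each the highest of all MSN, and Drd1 was 2.03 TPM. Gria1, Gria3, Gria4, Grin1 and Grin2a were listed at 0 in this cell, while Gria2 was 130 TPM and Grin2b 11.2 TPM. It also held Grin2c, an NMDA subunit known from cerebellar granule cells and astrocytes, at 31.9 TPM, or 99.7% of the Grin2c TPM of all MSN. Without this cell the log2 difference of D1 over D2 MSN was 0.12 for Gria1, 0.39 for Grin1 and 0.69 for Grin2a, and 0 of 9 subunits passed 2-fold. Grin3b, the last NMDA subunit, was above 0 in 1 MSN, a D2 cell at 24.2 TPM. Grin2c and Grin3b are named because they complete the family.

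The partners of the receptors were read from lists of AMPA auxiliary subunits, AMPA assembly and trafficking factors, editing enzymes and NMDA regulators. Auxiliary subunits sit beside the AMPA channel and set its gating and its export to the surface. Of the 13 on the list 12 were in the table, and 0 were counted as different in either direction (of all listed genes 8.7% were counted as higher in D1 and 5.38% as higher in D2 MSN). Over the 8 of them averaging 1 TPM or more the median log2 difference was -0.31, against 0.09 over all genes that did. Cnih2, a cornichon protein that carries AMPA receptors out of the endoplasmic reticulum, was the highest, with 0 to 575 TPM in D1 MSN (median 43.7, mean 99.0) and 0 to 958 TPM in D2 MSN (median 93.2, mean 176). Its log2 difference was -0.83, towards D2 MSN on both large plates (-0.67 and -1.43), and the ranges overlapped. The list was mixed in direction. Gsg1l (0.69) and Cacng4 (0.52), also on it, went towards D1 MSN on both large plates.

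Of 8 assembly and trafficking genes, 7 averaged 1 TPM or more over MSN, and of all such genes 21.3% were counted in either direction. Of the 8, 1 was counted higher in D1 MSN and 2 in D2 MSN (8.7% and 5.38% of all genes). Nsf, an ATPase that binds the Gria2 tail, was the highest of them with means of 165 and 166 TPM and a log2 difference of -0.01. Abhd6, a hydrolase that binds AMPA subunits and breaks down an endocannabinoid, had means of 10.5 TPM in D1 and 36.9 TPM in D2 MSN (log2 difference -1.73) and was above 1 TPM in 9 of 40 and 14 of 38 cells. The scaffold genes Grip1 and Grip2 went opposite ways. Grip1 had means of 2.04 and 13.6 TPM (log2 difference -2.26), was above 1 TPM in 5 D1 and 8 D2 MSN, and 1 D2 MSN held 31.6% of its summed TPM. Grip2 had means of 1.56 and 0.198 TPM (log2 difference 1.09), and 1 D1 MSN held 46.9% of its summed TPM. Each of these differences thus rested on few cells.

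Of the 3 editing enzymes, Adar was the highest by mean (22.8 TPM in D1 and 21.1 TPM in D2 MSN, above 1 TPM in 19 of 40 and 16 of 38 cells). Adarb1, which encodes ADAR2, the enzyme that edits the Q/R site of Gria2, had means of 17.4 and 9.40 TPM and was above 1 TPM in 19 D1 and 12 D2 MSN. Gria2 was thus above 1 TPM in nearly all MSN and Adarb1 in 31 of 78. Adarb2, a relative without known editing activity, was the 1 gene of the list counted as different, beside 14.1% of all genes. All 3 enzymes averaged 1 TPM or more over MSN, and of all such genes 21.3% were counted. The means of Adarb2 were 13.4 and 0.225 TPM. A single D1 MSN at 380 TPM held 69.9% of its summed TPM, and 7 D1 and 3 D2 MSN were above 1 TPM.

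All 9 NMDA regulators averaged 1 TPM or more over MSN, and of all such genes 21.3% were counted in either direction. Among the 9 regulators 0 were counted higher in D1 MSN and 1 in D2 MSN (8.7% and 5.38% of all genes). That gene, Neto1, whose product binds NMDA and kainate receptors, ran from 0 to 247 TPM in D1 MSN (median 20.8, mean 32.1) and from 0 to 307 TPM in D2 MSN (median 37.7, mean 66.2). Its log2 difference was -1.02, with -0.76 and -1.25 on the large plates, and it was above 1 TPM in 27 cells of each kind. The highest by mean was Camk2b, a subunit of the kinase that docks on Grin2b, with 307 TPM in D1 and 224 TPM in D2 MSN and a log2 difference of 0.45.

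**Figure D5:**
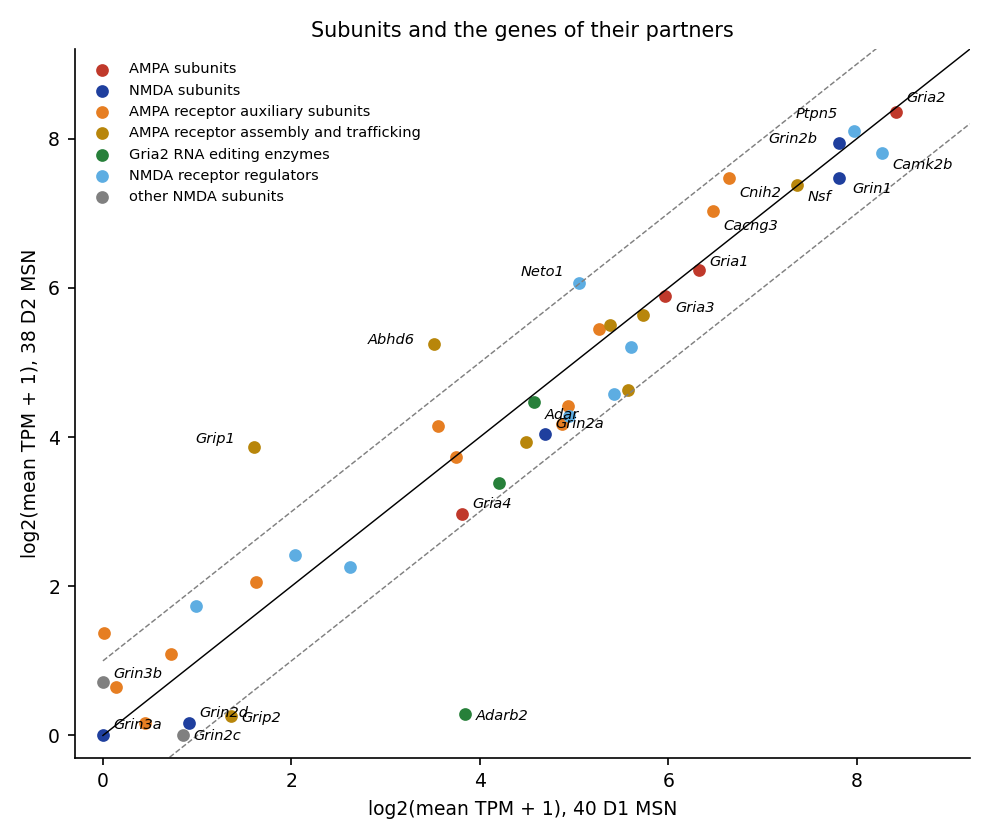
Mean TPM in 40 D1 MSN against 38 D2 MSN for the subunit genes and the genes on the lists of their partners, on log2(mean TPM + 1) axes; the solid line is equality and the dashed lines are 2-fold. The 9 subunits lie within the dashed lines, and Abhd6, Grip1, Neto1, Grip2 and Adarb2 lie outside them, as does Cacng5 (unnamed, near the left edge), which was not in the same direction on both large plates.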

How the data were processed

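The authors deposited TPM per gene and cell. Per the labels and the methods, cDNA was made with the SMARTer kit, sequenced as paired 75-base reads, aligned with STAR 2.5.0 to GRCm38 (annotation GRCm38.75) and counted with featureCounts 1.5.1. How the TPM were made is not given in the sources used here, and reads were not recounted. All 80 cells were kept, since the study counts fewer usable cells and does not name those it left out, no doublet caller was run, and no column was left unmapped. A gene was counted in a cell above 1 TPM. Cells with Chat, Slc18a3 and Slc5a7 above 100 TPM were taken as cholinergic interneurons. Folds used a pseudocount of 1 TPM and understate changes of low genes. No p-value was computed, since animals are not labelled (the methods state 3 experiments on 3 animals). One pore sequence and the identities that need it are not reported here. The fold step was checked by multiplying the TPM of 200 genes by known factors in randomly split cells, with a far smaller pseudocount. That checks the arithmetic only. Named genes were the 9 subunits and, of the partner lists, those past the fold and the highest of each list. Adarb1, Cacng4, Cacng5, Gsg1l, Grin2c and Grin3b were added after their values were seen. The members and lists were chosen with earlier results of these data known. Computations ran in Python 3.11.15 with pandas 2.3.3, scipy 1.17.1, numpy 2.4.6 and, for plots, matplotlib 3.10.9.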

Additional observations from a re-analysis of the deposited data

How the results depend on the processing

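Of 12 alternatives for the count of subunits past 2-fold, 10 left it at 0. It was 1 with a pseudocount of 0.1 TPM (Grin2d, log2 difference 2.16) and 1 without plate FACS051_5 (Gria4, 1.19). In the latter the direction was asked on 1 large plate only. With the settings as reported, the count over all genes was 3339 at a mean of 1 TPM or more, 3542 with no such limit and 1214 at 10 TPM or more. No count over all genes was taken under the alternatives. Log2 differences stayed above 0 under all 12 alternatives for Grin1 (0.31 to 0.65), Grin2a (0.42 to 0.80), Gria4 (0.03 to 1.19) and Grin2d (0.10 to 2.16), the lowest Gria4 value being that with the cholinergic interneurons kept among the Drd2 cells. They took both signs for Gria1 (-0.48 to 0.77), Gria2 (-0.08 to 0.33), Gria3 (-0.14 to 0.30) and Grin2b (-0.51 to 0.28). The Gria2 share in D2 MSN was 68.2% both in cells with at least 4000 genes and with the cholinergic interneurons kept. As the median within cells, the Grin2b share was 98.0% in D1 and 98.9% in D2 MSN. For the shares of cells with a subunit, limits of 0 and 10 TPM gave 27 values within the interval at 1 TPM. The other 9 values were outside it, Grin2a at 0 TPM among them in both kinds of MSN. The median number of subunits above 1 TPM in D2 MSN was 6 without plate FACS086_9, in cells with at least 4000 genes or at a limit of 0 TPM, and in D1 MSN it was 5 at a limit of 10 TPM. The alternative without the cell with astrocyte genes and that without asking for a direction on the plates were added after seeing the data. No paired analysis was possible because no result comes from a test. Matched by plate, as the mean of the values within both large plates, the log2 difference was 0.71 for Gria4, 0.77 for Grin2a, 0.32 for Grin1 and -0.17 for Grin2b. With the animals unlabelled, plate, animal and day cannot be told apart, and the depth behind a TPM is unknown.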
